A study of Mus musculus with 24 samples.

Results

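The genes described here code for proteins that airway cells release as a first defence against microbes, together with proteins of the acute phase response. They are 10 mouse genes chosen by name, Bpifa1, Bpifb1, Pigr, Lcn2, Saa3, Reg3g, Slpi, Lyz1, Lyz2 and Pglyrp1, out of 19938 genes that the array annotation names. Each was measured by 1 probe set that names no other gene, so that 10 of the 21789 probe sets that name exactly 1 gene are followed, and all 10 had a group mean above a log2 intensity of 5 in some group. RNA of the left lung lobe of male mice was hybridised to 24 single-colour arrays in 8 groups, wild type (WT) littermates and Scnn1b-Tg mice at postnatal day (PND) 0, 3, 10 and 42, with 3 arrays per group. Both genotypes had the C57Bl/6N Tac background and were housed free of specific pathogens. Scnn1b-Tg mice carry a transgene for the β subunit of the epithelial sodium channel under the promoter of Scgb1a1, a gene of airway club cells, and the WT littermates carry no transgene. By the labels each array held RNA pooled from 2 animals, except Scnn1b-Tg PND 42 replicate 3, which held that of 1 animal. The methods of the study give a larger number of mice per sample, a difference that was not settled. The samples are called pools here, that one included, and the spread between the arrays of a group is a spread between pools. The comparisons ask how these genes change after birth and whether airways that absorb too much sodium and water carry them at another level.

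Airway surfaces are covered by a liquid into which epithelial cells, glands and white blood cells secrete proteins that bind, starve or digest bacteria. BPIF proteins coat the surface, the polymeric immunoglobulin receptor carries IgA from the tissue into the lumen, lysozymes cut the bacterial cell wall, and lectins and recognition proteins bind its peptidoglycan. Lipocalin 2 and serum amyloid A are made in larger amounts when cells receive signals such as interleukin-1, interleukin-17 or interleukin-6. All of these products can come from more than 1 cell type, and in whole lung a lower level cannot be told apart as fewer cells of a type or less RNA per cell.

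Values are the deposited log2 intensities, on which a step of 1 is a doubling of signal, and levels are compared between samples of 1 gene only. A gene is said to have been called, to have risen or to have fallen where the change was at least 2-fold and limma gave it an adjusted p (Benjamini-Hochberg, over all 21789 probe sets) no greater than 0.05. Scnn1b itself was called higher in Scnn1b-Tg lungs at all 4 ages, by 2.93 to 3.29 on the log2 scale. In 3 pools the 8 markers of squamous and oesophageal epithelium stood apart, with a mean of 5.83 in WT PND 3 replicate 3, 5.73 in Scnn1b-Tg PND 0 replicate 3 and 6.12 in Scnn1b-Tg PND 10 replicate 1, against 4.06 to 4.47 in the other 21 pools. WT PND 3 replicate 2 stood apart for the genes described here, as shown further on.

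At PND 42, 4 of the 10 genes were higher in Scnn1b-Tg than in WT lungs, Pigr, Lcn2, Saa3 and Reg3g, and 1 gene, Bpifa1, was lower. Over all probe sets 0.326% were called higher and 0.0138% lower in the same comparison. The 250 bases before the annotated start of these 5 genes are shown, because these are the genes whose levels were called different. The sequences are those of RefSeq in the build GRCm38.p6, 5′ to 3′ on the strand of the gene, and capitals mark matches to 1 of 8 short motifs that were searched on both strands.

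Bpifa1, chr2:154142630-154142879, plus strand: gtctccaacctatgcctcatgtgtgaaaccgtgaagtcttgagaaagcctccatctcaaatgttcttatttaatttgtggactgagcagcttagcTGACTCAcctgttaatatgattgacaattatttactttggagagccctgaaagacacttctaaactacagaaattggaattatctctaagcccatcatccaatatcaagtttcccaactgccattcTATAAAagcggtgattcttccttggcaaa
Pigr, chr1:130826434-130826683, plus strand: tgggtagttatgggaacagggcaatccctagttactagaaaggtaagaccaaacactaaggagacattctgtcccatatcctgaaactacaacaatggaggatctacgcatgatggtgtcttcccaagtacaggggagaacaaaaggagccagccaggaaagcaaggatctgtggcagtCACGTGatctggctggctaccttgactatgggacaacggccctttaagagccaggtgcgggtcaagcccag
Lcn2, chr2:32387740-32387989, minus strand: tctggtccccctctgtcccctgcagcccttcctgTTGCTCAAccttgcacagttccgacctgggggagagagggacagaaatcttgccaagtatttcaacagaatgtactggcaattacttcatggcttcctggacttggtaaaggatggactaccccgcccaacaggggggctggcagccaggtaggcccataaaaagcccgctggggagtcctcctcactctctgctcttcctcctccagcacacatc
Saa3, chr7:46715677-46715926, minus strand: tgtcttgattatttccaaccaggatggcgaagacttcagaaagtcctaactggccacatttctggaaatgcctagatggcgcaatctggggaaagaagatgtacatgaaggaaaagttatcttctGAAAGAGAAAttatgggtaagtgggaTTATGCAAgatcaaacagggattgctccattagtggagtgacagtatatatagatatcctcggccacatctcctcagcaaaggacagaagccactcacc
Reg3g, chr6:78468875-78469124, minus strand: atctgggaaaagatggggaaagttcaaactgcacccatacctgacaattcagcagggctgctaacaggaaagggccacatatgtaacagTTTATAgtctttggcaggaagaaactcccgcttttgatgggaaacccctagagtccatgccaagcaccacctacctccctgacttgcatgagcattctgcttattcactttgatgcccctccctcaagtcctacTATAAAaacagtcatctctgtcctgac

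The Bpifa1 window held TGANTCA, the letters bound by AP-1 proteins, 155 to 149 bases before the start, and TATAAA 29 to 24 bases before it. The Pigr window held the E-box CACGTG 71 to 66 bases before the start. The Lcn2 window held TTGCNNAA, a C/EBP motif, 216 to 209 bases before the start. The Saa3 window held the same motif on the opposite strand, 99 to 92 bases before the start, and an interferon response motif (TTTCNN followed by TTTC), 125 to 116 bases before it, also on the opposite strand. The annotated start of Saa3 used here lies within the span of the gene. The Reg3g window held TATAAA at 2 places, 27 to 22 bases before the start and, on the opposite strand, 161 to 156 bases before it. Of 32851 promoter windows of this length over all genes, 9.56% held the C/EBP motif, 6.75% the AP-1 motif, 6.02% the E-box, 2.98% the interferon response motif and 12.4% TATAAA. None of the matches overlapped another, and these matches are descriptions of letters. The remaining motifs were TTCNNNGAA (STAT, in 7.02% of all windows), GGGAN followed by TTTCC (NF-kB, 0.356%) and TGTTTAC (FOXA, 3.17%), with no match in these 5 windows. The 10 genes have 11 such windows, Bpifb1 having 2, and of these 4 held the C/EBP motif, those of Lcn2, Saa3, Slpi and Lyz1.

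**Figure D1:**
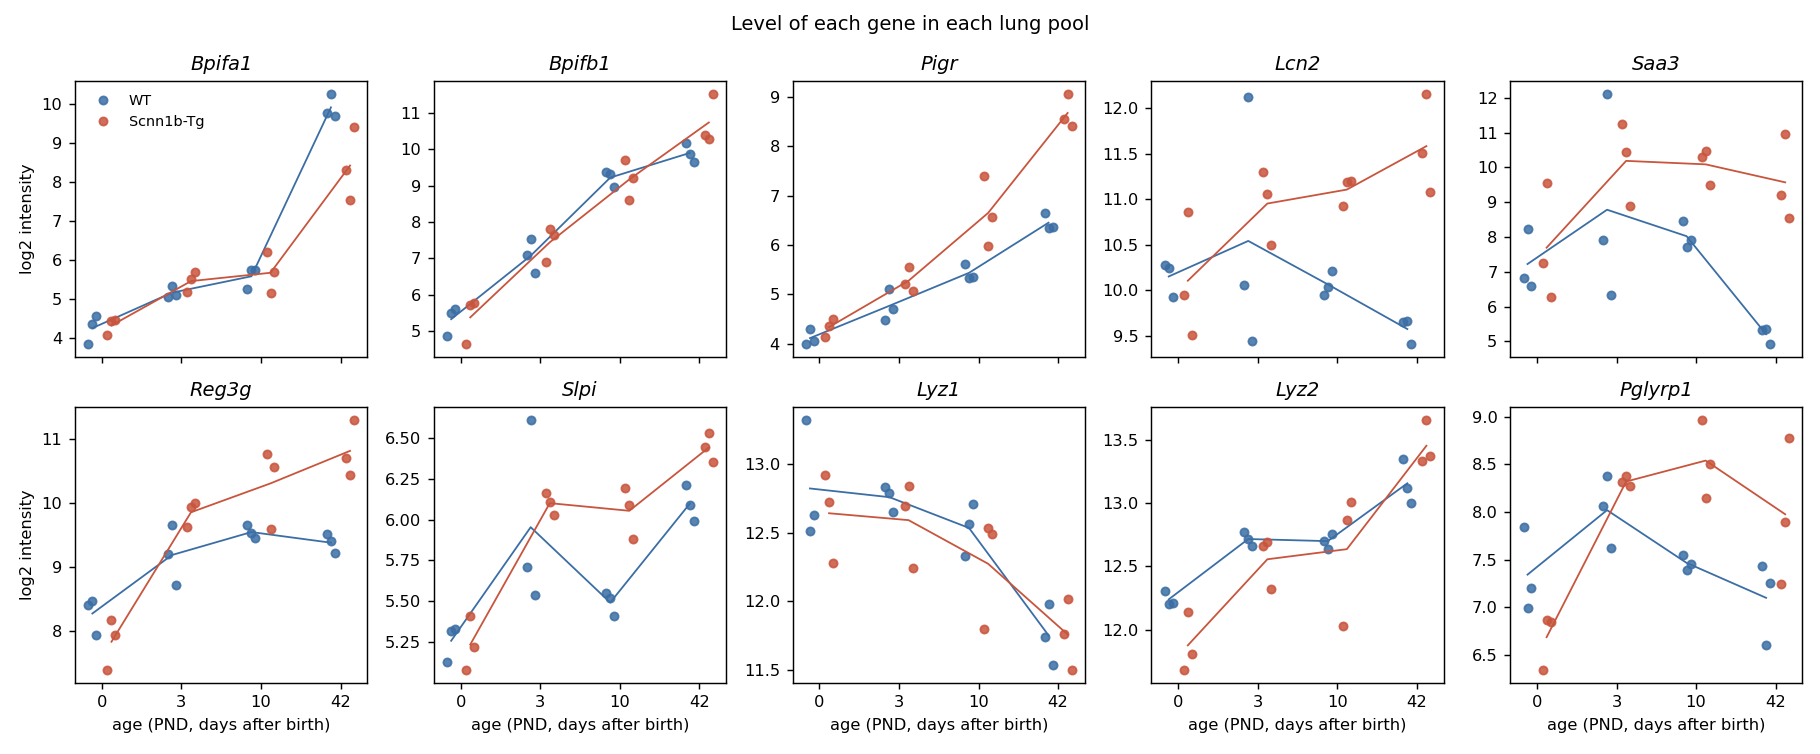
Log2 intensity of each of the 10 genes (vertical axes, scaled per gene) against age in days after birth, evenly spaced, with 1 point per pool, WT in blue and Scnn1b-Tg in red, and lines through the group means. Bpifa1 and Bpifb1 climb in both genotypes, Pigr climbs further in Scnn1b-Tg lungs, and Saa3 and Lcn2 end low in WT and high in Scnn1b-Tg lungs at PND 42.

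Bpifa1 lies at chr2:154142880-154149217 and codes for a secreted BPI-fold protein of the upper and large airways that is known to bind the epithelial sodium channel and reduce its activity. In WT lungs its log2 intensity was 3.85, 4.37 and 4.57 at PND 0, 5.06, 5.33 and 5.12 at PND 3, 5.26, 5.75 and 5.76 at PND 10, and 9.78, 10.27 and 9.70 at PND 42. In Scnn1b-Tg lungs it was 4.08, 4.44 and 4.47 at PND 0, 5.18, 5.53 and 5.69 at PND 3, 6.20, 5.15 and 5.69 at PND 10, and 8.31, 7.55 and 9.42 at PND 42. The genotypes overlapped at the first 3 ages, and at PND 42 every Scnn1b-Tg pool lay below every WT pool. The rise of Bpifa1 from PND 0 to PND 42 was 5.65 on the log2 scale in WT (SE 0.32, adjusted p 3.59e-11) and 4.09 in Scnn1b-Tg lungs (adjusted p 3.5e-09), and most of it fell between PND 10 and PND 42, 4.33 in WT and 2.74 in Scnn1b-Tg lungs. At PND 42 its level was lower by a factor of 2.82 in Scnn1b-Tg lungs, a log2 difference of -1.49 (SE 0.32, 95% confidence interval -2.16 to -0.82, adjusted p 0.025). The call ended without any 1 of the 3 WT pools or without Scnn1b-Tg replicate 1 or 2 (adjusted p 0.0508 to 0.168), and it held without replicate 3, the highest Scnn1b-Tg pool, at -1.99 (adjusted p 0.000371). The difference between the genotypes in the change from PND 10 to PND 42 was -1.58 (SE 0.46, adjusted p 0.158), and -2.08 (adjusted p 0.0144) without Scnn1b-Tg PND 42 replicate 3. By the labels that sample held RNA of 1 animal.

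Bpifb1, at chr2:154190818-154220343 next to Bpifa1, codes for the long BPIF protein of airway secretory cells. It read 4.87, 5.49 and 5.60 in WT and 4.63, 5.70 and 5.78 in Scnn1b-Tg lungs at PND 0. At PND 3 it read 7.09, 7.53 and 6.59 in WT and 6.89, 7.80 and 7.63 in Scnn1b-Tg lungs, and at PND 10 it read 9.39, 9.31 and 8.97 in WT and 9.70, 8.60 and 9.22 in Scnn1b-Tg lungs. At PND 42 it read 10.19, 9.87 and 9.65 in WT and 10.40, 10.29 and 11.54 in Scnn1b-Tg lungs. Bpifb1 thus climbed early, with overlapping genotypes up to PND 10, while Bpifa1 climbed late. Bpifb1 rose from PND 0 to PND 3 by 1.75 in WT and 2.07 in Scnn1b-Tg lungs, and from PND 3 to PND 10 by 2.15 (adjusted p 0.000518) and 1.74 (adjusted p 0.00787), the last of these calls ending without Scnn1b-Tg PND 3 replicate 1 (adjusted p 0.0577). From PND 10 to PND 42 it rose in Scnn1b-Tg lungs by 1.57 (adjusted p 0.00168) and differed in WT by 0.68 (adjusted p 0.156). At PND 42 the 3 Scnn1b-Tg pools lay above the 3 WT pools, with a difference of 0.84 (SE 0.35, 95% confidence interval 0.11 to 1.57, adjusted p 0.394) that was not called.

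Pigr, at chr1:130826684-130852249, codes for the polymeric immunoglobulin receptor, which takes up dimeric IgA and IgM at the base of epithelial cells and releases them at the surface. Its level in WT lungs was 3.99, 4.29 and 4.06 at PND 0, 4.49, 5.11 and 4.71 at PND 3, 5.62, 5.34 and 5.35 at PND 10, and 6.64, 6.35 and 6.37 at PND 42. In Scnn1b-Tg lungs it was 4.14, 4.36 and 4.51 at PND 0, 5.21, 5.56 and 5.06 at PND 3, 7.40, 5.98 and 6.57 at PND 10, and 8.55, 9.07 and 8.41 at PND 42. The genotypes overlapped at PND 0 and at PND 3 and were separate at PND 10 and PND 42, where each Scnn1b-Tg pool was the higher. Over the whole period Pigr rose by 2.34 in WT (SE 0.25, adjusted p 1.36e-07) and by 4.34 in Scnn1b-Tg lungs (adjusted p 2.49e-11). The difference at PND 42 was 2.22 (SE 0.25, 95% confidence interval 1.71 to 2.73, adjusted p 1.46e-05), a 4.67-fold higher level, and it was called without any 1 of the 6 arrays. At PND 10 the difference was 1.21 (SE 0.25, adjusted p 0.0245). That call ended without any 1 of the 3 WT pools or without Scnn1b-Tg replicate 1 or 3 (adjusted p 0.06 to 0.28), and without replicate 1, the pool with raised squamous markers and the highest Pigr, the difference was 0.84 (adjusted p 0.28).

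The genes that make the cargo of Pigr were compared through a list of 16 measured genes of IgA-producing and B cells. At PND 42, 1 of the 16 was called higher in Scnn1b-Tg than in WT lungs, beside 0.326% of all probe sets. The median of the list was 0.04 beside 0 over all probe sets. The called gene was Igha, the constant region of the IgA heavy chain, which was higher by 1.30 (SE 0.13, adjusted p 4.5e-06), with WT pools from 5.36 to 5.94 and Scnn1b-Tg pools from 6.64 to 7.06. Jchain, which joins IgA into dimers, had a difference of 1.81 (SE 0.48, adjusted p 0.0828) that was not called, with WT pools from 5.07 to 5.89 and Scnn1b-Tg pools from 6.71 to 7.80. From PND 0 to PND 42 in WT, 5 of the 16 were called higher and 2 lower, beside 1.71% and 9.73% of all probe sets, with 5 and 1 for Scnn1b-Tg lungs, beside 2.48% and 8.7%. Igha rose by 1.17 in WT and by 2.40 in Scnn1b-Tg lungs, and the plasma cell regulator Prdm1 fell by 1.25 in WT and fell by 1.10 in Scnn1b-Tg lungs. Jchain was also the gene whose 8 group means, centred on their own mean, lay nearest to those of Pigr, at a root mean square distance of 0.31 on the log2 scale, followed by Lrg1 (0.33) and Itih4 (0.35), which both code for plasma proteins of the acute phase.

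Lcn2, at chr2:32384637-32387739, codes for lipocalin 2, which withholds iron from bacteria by binding their siderophores and is made by both epithelial cells and neutrophils. WT lungs read 10.28, 10.25 and 9.93 at PND 0, 10.06, 12.12 and 9.45 at PND 3, 9.95, 10.04 and 10.21 at PND 10, and 9.65, 9.67 and 9.41 at PND 42. Scnn1b-Tg lungs read 9.95, 10.86 and 9.51 at PND 0, 11.30, 11.06 and 10.50 at PND 3, 10.93, 11.19 and 11.20 at PND 10, and 11.51, 12.16 and 11.08 at PND 42. Leaving aside 1 WT pool at PND 3, WT lungs stayed within a narrow band, and the Scnn1b-Tg pools lay above all WT pools of their age at PND 10 and PND 42. At PND 42 Lcn2 was 4.02-fold higher in Scnn1b-Tg lungs, a log2 difference of 2.01 (SE 0.44, 95% confidence interval 1.10 to 2.92, adjusted p 0.0256). The call held without Scnn1b-Tg replicate 1 or 3 and ended without any 1 of the WT pools or without Scnn1b-Tg replicate 2 (adjusted p 0.0662 to 0.154). At PND 10 the difference was 1.04 (SE 0.44, adjusted p 0.457). Within Scnn1b-Tg lungs Lcn2 rose by 1.48 from PND 0 to PND 42 (adjusted p 0.00748), while WT lungs had a change of -0.57 (adjusted p 0.265).

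Saa3, at chr7:46711998-46719615, codes for a serum amyloid A that mouse macrophages and epithelia make in place, outside the liver. In WT lungs the values were 6.83, 8.24 and 6.6 at PND 0, 7.91, 12.12 and 6.32 at PND 3, 8.46, 7.70 and 7.91 at PND 10, and 5.33, 5.37 and 4.92 at PND 42. In Scnn1b-Tg lungs they were 7.25, 9.54 and 6.29 at PND 0, 11.25, 10.43 and 8.88 at PND 3, 10.30, 10.46 and 9.50 at PND 10, and 9.20, 10.96 and 8.55 at PND 42. No other gene of the group varied as much between pools of 1 group, with a within-group SD of 1.42 against 0.23 to 0.61 for the other 9, and its standard error of 1.00 was the largest of the 10. At PND 42 Saa3 was 20.6-fold higher in Scnn1b-Tg lungs, a log2 difference of 4.37 (95% confidence interval 2.28 to 6.45, adjusted p 0.038), with no overlap between the genotypes. The call held without Scnn1b-Tg replicate 1 or 3 and ended without any 1 of the WT pools or without Scnn1b-Tg replicate 2 (adjusted p 0.0906 to 0.203), and the difference stayed between 3.67 and 4.88. In WT lungs Saa3 fell by 2.82 from PND 10 to PND 42 (adjusted p 0.0368), and each of the 6 arrays, when left out, ended that call (adjusted p 0.064 to 0.104). In Scnn1b-Tg lungs it rose by 2.49 from PND 0 to PND 3 (adjusted p 0.0443), a call that ended without Scnn1b-Tg PND 0 replicate 1 or 3 or PND 3 replicate 1 or 2 (adjusted p 0.0982 to 0.191).

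Reg3g, at chr6:78466269-78468874, codes for a secreted lectin that kills Gram-positive bacteria. WT lungs read 8.40, 8.47 and 7.94 at PND 0, 9.20, 9.65 and 8.71 at PND 3, 9.66, 9.53 and 9.45 at PND 10, and 9.52, 9.40 and 9.22 at PND 42. Scnn1b-Tg lungs read 7.38, 8.17 and 7.93 at PND 0, 9.62, 9.94 and 10.01 at PND 3, 10.77, 9.60 and 10.56 at PND 10, and 10.71, 10.44 and 11.31 at PND 42. The WT level changed little after PND 3, and the Scnn1b-Tg pools were clear of the WT pools at PND 42 alone. Reg3g was then 2.71-fold higher in Scnn1b-Tg lungs, a log2 difference of 1.44 (SE 0.27, 95% confidence interval 0.87 to 2.01, adjusted p 0.00749), a call that ended without WT replicate 3 (adjusted p 0.0507) or Scnn1b-Tg replicate 3 (adjusted p 0.054). Its steepest step was the rise of 2.03 from PND 0 to PND 3 in Scnn1b-Tg lungs (adjusted p 3.38e-06), against 0.92 in WT (adjusted p 0.00942), which is under 2-fold. The difference between those 2 steps was 1.12 (SE 0.39, adjusted p 0.998). From PND 0 to PND 42 Reg3g rose by 1.11 in WT, a change that was 0.95 and under 2-fold without WT PND 0 replicate 3, and by 2.99 in Scnn1b-Tg lungs (adjusted p 2e-08).

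Slpi, at chr2:164354070-164356507, codes for an inhibitor of neutrophil elastase that also acts on bacteria. It had the narrowest spread within groups, with means from 5.23 to 6.44 over the 8 groups. Its WT pools at PND 10 read 5.55, 5.52 and 5.41 and its Scnn1b-Tg pools 6.19, 6.09 and 5.88, without overlap, and the difference was 0.56 (SE 0.18, adjusted p 0.203). At PND 42 the WT pools read 6.21, 6.09 and 5.99 and the Scnn1b-Tg pools 6.44, 6.53 and 6.35, again without overlap, with a difference of 0.35 (SE 0.18, 95% confidence interval -0.02 to 0.71, adjusted p 0.53). Slpi rose from PND 0 to PND 42 by 1.21 in Scnn1b-Tg lungs (adjusted p 8.85e-06), and its change in WT was 0.83 (adjusted p 0.000499), under 2-fold.

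The lysozymes lie side by side on chromosome 10, Lyz1 at chr10:117287795-117292868 and Lyz2 at chr10:117277541-117282272. Lyz2 is the lysozyme of macrophages and alveolar type II cells, and Lyz1 is best known from Paneth cells of the gut. They are near-identical copies, so each probe set may take signal from the other gene, and their levels are uncertain to that extent. Their promoter windows are shown because the copies reach into them, with the C/EBP motif of Lyz1 in capitals.

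Lyz1, chr10:117292869-117293118, minus strand: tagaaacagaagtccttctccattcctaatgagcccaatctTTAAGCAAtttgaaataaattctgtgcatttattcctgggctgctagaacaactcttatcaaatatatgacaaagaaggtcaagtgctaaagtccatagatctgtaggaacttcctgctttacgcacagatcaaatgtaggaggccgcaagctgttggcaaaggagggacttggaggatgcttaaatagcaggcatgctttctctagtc
Lyz2, chr10:117282273-117282522, minus strand: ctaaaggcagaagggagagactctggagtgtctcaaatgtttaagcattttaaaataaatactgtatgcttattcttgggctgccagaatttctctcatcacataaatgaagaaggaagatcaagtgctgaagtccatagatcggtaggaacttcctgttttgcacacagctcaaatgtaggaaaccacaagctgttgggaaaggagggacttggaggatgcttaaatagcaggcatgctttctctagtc

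In a global alignment 200 of 252 columns of these windows were identical, 79.4%, and the last 50 bases before the start were the longest shared run. Lyz1 read 13.32, 12.51 and 12.63 in WT lungs at PND 0 and 11.74, 11.98 and 11.54 at PND 42, and in Scnn1b-Tg lungs it read 12.92, 12.72 and 12.28 at PND 0 and 11.76, 12.02 and 11.50 at PND 42. Lyz2 read 12.31, 12.20 and 12.21 in WT lungs at PND 0 and 13.35, 13.12 and 13.00 at PND 42, and in Scnn1b-Tg lungs it read 11.68, 12.14 and 11.81 at PND 0 and 13.33, 13.66 and 13.37 at PND 42. In each genotype the PND 42 pools read lower than the PND 0 pools for Lyz1 and higher for Lyz2. Lyz1 fell by 1.07 in WT from PND 0 to PND 42 (SE 0.22, adjusted p 0.000438), a change of -0.81 without WT PND 0 replicate 1, -0.96 without WT PND 42 replicate 3 and -0.84 with array medians subtracted, all under 2-fold, and in Scnn1b-Tg lungs its change was -0.88 (adjusted p 0.00247). Lyz2 rose in Scnn1b-Tg lungs by 1.58 (SE 0.18, adjusted p 3.93e-07), a change of 0.90 and under 2-fold when quantile normalization was repeated, and its change in WT was 0.92 (adjusted p 0.000243). Both probe sets were among the brightest, at the 99.9th percentile of mean level. Between the genotypes at PND 42 Lyz1 differed by 0.01 (95% confidence interval -0.46 to 0.47) and Lyz2 by 0.30 (95% confidence interval -0.08 to 0.67, adjusted p 0.635).

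Pglyrp1, at chr7:18884690-18890438, codes for a peptidoglycan recognition protein stored in neutrophil granules. Its levels at PND 0 were 7.84, 6.99 and 7.20 in WT and 6.34, 6.87 and 6.85 in Scnn1b-Tg lungs, and at PND 3 they were 8.06, 8.38 and 7.62 and 8.31, 8.38 and 8.27. At PND 10 they were 7.55, 7.39 and 7.46 in WT and 8.97, 8.15 and 8.50 in Scnn1b-Tg lungs, and at PND 42 they were 7.43, 6.61 and 7.26 and 7.25, 7.90 and 8.78. The Scnn1b-Tg pools lay below the WT pools at PND 0, above them at PND 10 and overlapped them at PND 3 and at PND 42, where 2 of the 3 were higher than every WT pool. The differences were -0.66 at PND 0 (SE 0.30, adjusted p 1), 1.08 at PND 10 (adjusted p 0.136) and 0.87 at PND 42 (adjusted p 0.248), none of them called. Without Scnn1b-Tg PND 42 replicate 1 the difference at PND 42 was 1.24 and was called (adjusted p 0.0324). Pglyrp1 rose in Scnn1b-Tg lungs from PND 0 to PND 3 by 1.63 (adjusted p 0.000142), and from PND 0 to PND 42 by 1.29 (adjusted p 0.00128), the latter being 0.89 and under 2-fold without Scnn1b-Tg PND 42 replicate 3.

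**Figure D2:**
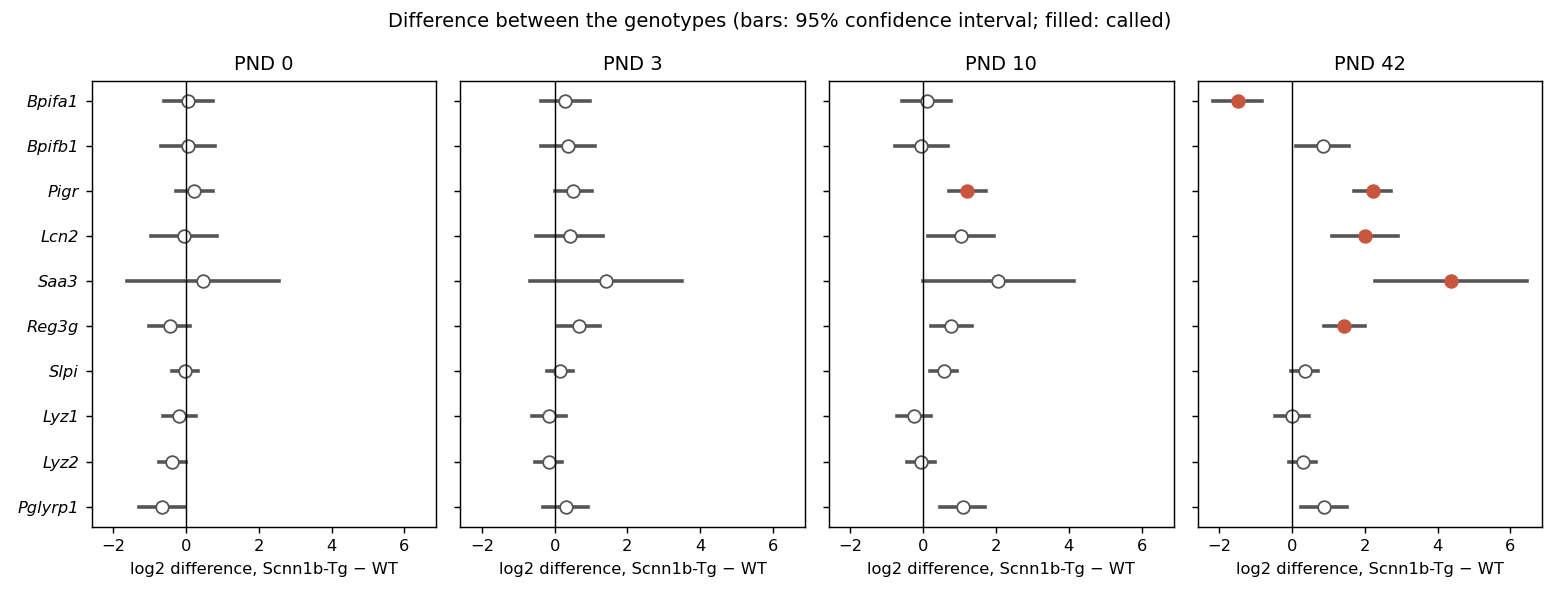
Log2 difference between Scnn1b-Tg and WT lungs (horizontal axes) for each gene at PND 0, 3, 10 and 42, with 95% confidence intervals from limma and filled points where the difference was called. No point is filled at PND 0 and PND 3, Pigr is filled at PND 10 with 1.21, and at PND 42 Pigr, Lcn2, Saa3 and Reg3g lie to the right of 0 and Bpifa1 to the left.

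Counted by age, 0 of the 10 genes were called between the genotypes at PND 0 and at PND 3 by limma, where 0.0138% and 0.00918% of all probe sets were called higher and 0% and 0.00918% lower. At an unadjusted p below 0.05 there was 1 gene at each of these ages, Pglyrp1 at PND 0 and Reg3g at PND 3. At PND 0 every Scnn1b-Tg pool lay below every WT pool for 2 genes, Lyz2 and Pglyrp1, beside 7% of all probe sets. At PND 10 the count was 1, beside 0.106% of all probe sets called higher and 0.0459% lower, and 5 genes, Lcn2, Pigr, Slpi, Saa3 and Pglyrp1, had every Scnn1b-Tg pool above every WT pool, beside 8.67% of all probe sets. At PND 42 such separation was seen upwards in 6 genes, Bpifb1, Lcn2, Pigr, Slpi, Saa3 and Reg3g, beside 6.67% of all probe sets, and downwards in Bpifa1, beside 4.06%. Of the 5 calls at PND 42, those of Pigr and Reg3g held and the other 3 ended both without eBayes moderation and with all rows of the array in the fit, and that of Reg3g ended with array weights (adjusted p 0.0639), so that Pigr alone was called under every setting tried at that age. The median log2 difference of the 10 genes was -0.04, 0.33, 0.66 and 0.86 at PND 0, 3, 10 and 42, and that of all probe sets lay between -0.02 and 0 at each age.

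With age, the changes in WT lungs were spread over separate intervals. From PND 0 to PND 3 only Bpifb1 was called higher, beside 1.96% of all probe sets (7.79% were called lower), and from PND 3 to PND 10 again only Bpifb1, beside 1.05% (0.239% lower). From PND 10 to PND 42 Bpifa1 and Pigr rose, beside 1.70% called higher, and Saa3 fell, beside 3.84% called lower, the rise of Pigr being 1.02 and under 2-fold without WT PND 10 replicate 2 or 3 or WT PND 42 replicate 1 (0.93 to 0.97). Over the whole period from PND 0 to PND 42, 4 genes rose in WT lungs, Bpifa1, Bpifb1, Pigr and Reg3g, beside 1.71% of all probe sets, and Lyz1 fell, beside 9.73%. In Scnn1b-Tg lungs 5 genes rose from PND 0 to PND 3, Bpifa1, Bpifb1, Saa3, Reg3g and Pglyrp1, beside 2.26%, and none fell, beside 8%. Bpifb1 and Pigr rose from PND 3 to PND 10, beside 0.817% (0.271% lower), and Bpifa1, Bpifb1 and Pigr rose from PND 10 to PND 42, beside 1.79% (3.38% lower). Over the whole period 8 of the 10 rose in Scnn1b-Tg lungs, all but Saa3 and Lyz1, beside 2.48% of all probe sets, and none fell, beside 8.7%. Without Scnn1b-Tg PND 0 replicate 2 the change of Saa3 over that period was 2.80 and was called (adjusted p 0.0349). Lyz1 was called lower over that period in Scnn1b-Tg lungs without Scnn1b-Tg PND 0 replicate 3 (-1.06), without PND 42 replicate 2 (-1.01) and when quantile normalization was repeated, a setting in which Lyz2 was no longer called. The balance of rises and falls over all probe sets depended on scaling: of those called, 79.9% fell from PND 0 to PND 3 and 85% from PND 0 to PND 42 in WT lungs, and 54.9% and 53.5% when quantile normalization was repeated on the deposited values. In Scnn1b-Tg lungs these shares were 78% and 77.8%, and 57.3% and 49.9% with the repeat, and from PND 10 to PND 42 they were 69.3% in WT and 65.3% in Scnn1b-Tg lungs, and 50.3% and 48.3% with the repeat. Subtracting array medians moved the median change of all probe sets from 0.06 to 0.24 for PND 0 to PND 3 in WT lungs.

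The difference between the genotypes in the change from 1 age to the next was called for 0 of the 10 genes in each of the 3 adjacent intervals by limma, beside 0% higher and lower over all probe sets from PND 0 to PND 3, 0% higher and 0.00918% lower from PND 3 to PND 10, and 0.193% higher and 0.0321% lower from PND 10 to PND 42. At an unadjusted p below 0.05 there were 2 genes from PND 0 to PND 3, Reg3g and Pglyrp1, 0 from PND 3 to PND 10, and 2 from PND 10 to PND 42, Bpifa1 and Pigr. Over the whole period from PND 0 to PND 42, a comparison added after the values had been seen, 2 genes were called, Pigr with a difference in change of 2.00 (SE 0.35, adjusted p 0.00745) and Reg3g with 1.88 (SE 0.39, adjusted p 0.034), beside 0.234% of all probe sets called higher and 0.0138% lower. The call of Pigr held without any 1 of the 12 arrays, and that of Reg3g held in 5 of the 12 cases, ending without WT PND 0 replicate 1 or 2, WT PND 42 replicate 2 or 3, Scnn1b-Tg PND 0 replicate 1 or 3, or Scnn1b-Tg PND 42 replicate 3 (adjusted p 0.0663 to 0.099). Without Scnn1b-Tg PND 42 replicate 1 Pglyrp1 was called too, with 1.89 (adjusted p 0.0286), and without replicate 3 Bpifa1 was, with -2.06 (adjusted p 0.0124).

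**Figure D3:**
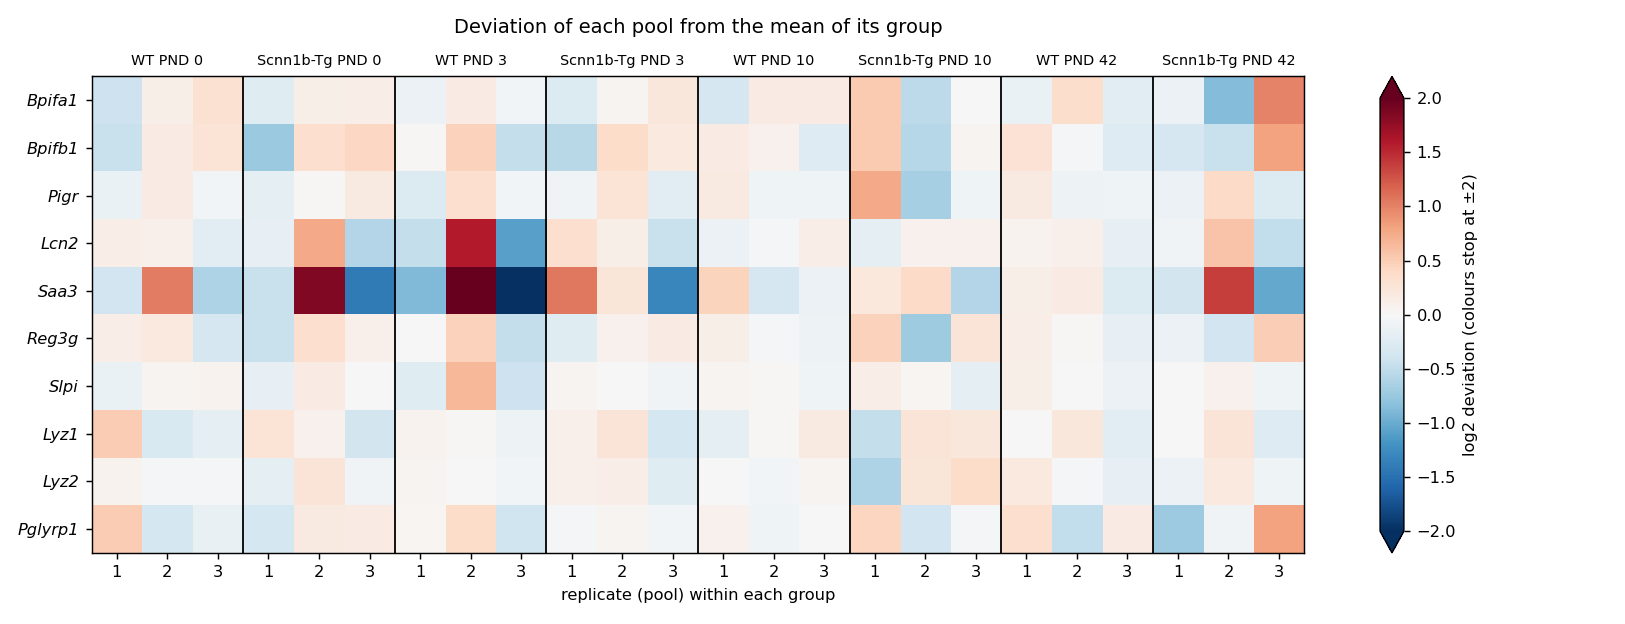
Deviation of each pool from the mean of its own group, in log2 units by colour (the scale stops at 2 either way), for the 10 genes (rows) in 24 pools (columns, 3 per group). WT PND 3 replicate 2 is above its group mean for all 10 genes and replicate 3 is below it for all 10, with the largest deviation 3.34, for Saa3.

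Pools of 1 group could differ in these genes by more than the genotypes did. In WT PND 3 replicate 2 all 10 genes lay above the mean of their group, with Saa3 and Lcn2 at least 1 log2 above both other pools, and in WT PND 3 replicate 3 all 10 lay below it. WT PND 3 replicate 2 also held raised acute phase and cytokine genes: of 24 measured acute phase genes 7 were at least 1 log2 above both other pools, among them Orm1, with 9.12 against 5.04 and 4.25, and of 30 genes of inducing signals 5 were, among them Il1b, with 8.97 against 6.39 and 5.32. These genes were named after their values were seen. Neutrophil markers averaged 7.21 in that pool, against 6.42 and 5.72 in the others, and over all probe sets 0.615% stood at least 1 log2 above both other pools. In WT PND 0 replicate 1, which held the highest Pglyrp1 and Lyz1 of its group, that share was 0.656%. Without WT PND 3 replicate 2, 0 of the 10 genes were called between the genotypes at PND 3, and the difference was 3.07 for Saa3 (SE 0.79, adjusted p 0.0745) and 1.20 for Lcn2 (SE 0.31, adjusted p 0.0755), against 1.40 and 0.41 with it. Without WT PND 3 replicate 3, the rises between birth and PND 3 of WT lungs in Saa3, 2.79 (adjusted p 0.0292), and in Reg3g, 1.15 (adjusted p 0.00366), were called as well as that of Bpifb1. All 10 genes were also above their group mean in Scnn1b-Tg PND 0 replicate 2, where Saa3 was 9.54 against 7.25 and 6.29, and in Scnn1b-Tg PND 3 replicate 2. At PND 42 the Scnn1b-Tg pools differed from each other: replicate 2 had the highest Saa3, Lcn2 and Pigr and the lowest Bpifa1. Replicate 3, which by the labels held RNA of 1 animal, had the highest Bpifa1, Bpifb1, Reg3g and Pglyrp1 and the lowest Saa3 and Lcn2.

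Some marker genes of several cell types differed between the genotypes at the same ages. The marker lists were chosen with earlier results of these data known, so their counts are descriptions only. Over all probe sets 0.106% were called higher and 0.0459% lower at PND 10, and 0.326% and 0.0138% at PND 42. Of 11 measured macrophage markers 3 were higher in Scnn1b-Tg lungs at PND 10, Cd68, Ctsk and Mmp12, and 5 at PND 42, those 3 with Mrc1 and Itgax. The log2 of the summed macrophage marker intensity ranged from 9.92 to 10.06 in WT and 10.62 to 11.08 in Scnn1b-Tg pools at PND 10, and from 10.04 to 10.36 and 11.65 to 12.30 at PND 42. Of 8 goblet cell markers 2 were lower at PND 10, Clca1 and Muc5ac, with summed levels of 10.62 to 11.12 in WT and 9.34 to 10.05 in Scnn1b-Tg pools, and 3 were higher at PND 42, Clca1, Gp2 and Muc5ac, with summed levels of 9.08 to 9.73 and 11.48 to 12.14. The 8 goblet cell markers did not move as 1. Their differences ran from -2.47 to 1.00 at PND 10, with a median of -0.22. At PND 42 they ran from -0.19 to 4.05, with a median of 1.00. Of 12 neutrophil markers only Cd177 was called at both ages, higher by 2.76 at PND 10 (adjusted p 0.00274) and 3.10 at PND 42 (adjusted p 0.000215). Its list summed to 8.78 to 9.54 in WT and 9.51 to 10.23 in Scnn1b-Tg pools at PND 42. None of the 8 club cell markers was called at either age. They summed to 13.91 to 14.09 in WT and 13.32 to 13.84 in Scnn1b-Tg pools at PND 10. The ranges at PND 42 were 14.78 to 15.10 and 14.62 to 14.75, and those at PND 3 were 14.21 to 14.23 and 13.62 to 14.17. None of the markers of ciliated cells (8), alveolar type II cells (8), squamous epithelium (8), epithelium in general (7) or leukocytes in general (6) was called between the genotypes at any age. Leukocyte markers still summed to 10.59 to 10.78 in WT and 10.92 to 11.10 in Scnn1b-Tg pools at PND 10. At PND 42 these ranges were 11.04 to 11.21 and 11.56 to 11.93. General epithelium gave 11.04 to 11.19 and 11.41 to 11.54 at PND 10, and overlapped at PND 42. Ciliated cells gave 7.89 to 8.05 and 8.31 to 8.67 at PND 10, and overlapped at PND 42. Alveolar type II cells overlapped at PND 10 and gave 14.41 to 14.71 and 14.79 to 14.92 at PND 42. The part of these cell types in the results for the 10 genes was not tested. The club cell gene Scgb1a1 read between 11.58 and 14.11 in all pools.

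**Figure D4:**
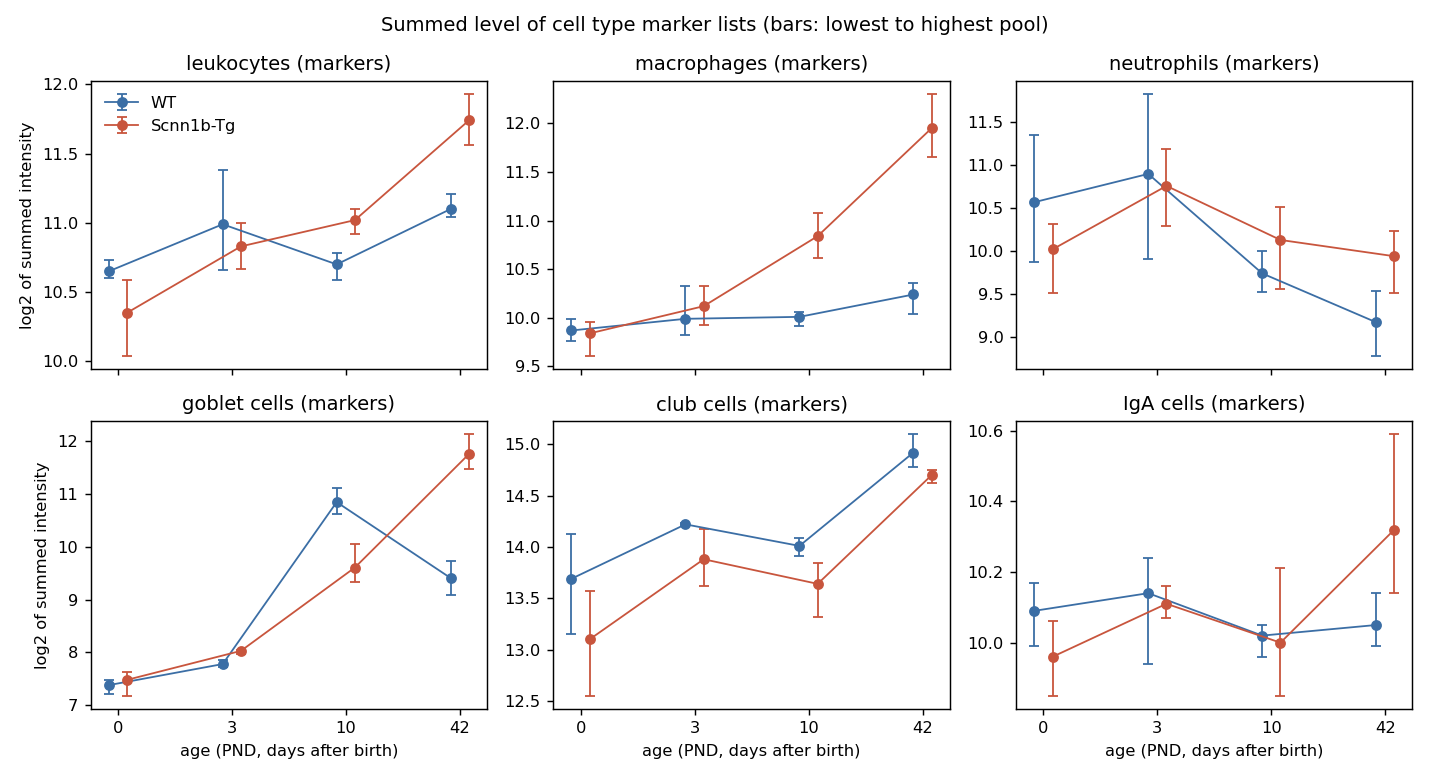
Log2 of the summed intensity of 6 lists of marker genes (vertical axes, scaled per list) against age in days after birth, evenly spaced, as the mean of 3 pools with bars from the lowest to the highest pool, WT in blue and Scnn1b-Tg in red. Macrophage markers part between the genotypes from PND 10, and the summed goblet cell markers are lower in Scnn1b-Tg lungs at PND 10 and higher at PND 42. Single goblet cell markers ran both ways at both ages.

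Other genes of these families and pathways were counted from lists that were likewise chosen with earlier results of these data known. Of 44 measured relatives, other BPI, BPIF, Reg, defensin, whey acidic, collectin and granule proteins, 14 had a group mean above 5 and 0 were called between the genotypes at any age, where at most 0.326% of all probe sets were called higher and 0.0459% lower, so that a count of 0 in a list of this size is not particular to it. The median difference of the relatives lay between -0.04 and 0.01. Ltf, which codes for lactotransferrin, an iron binder of mucosal fluids and neutrophils, had the lowest p of them at PND 42, with a difference of 1.67 (SE 0.41, adjusted p 0.0583), WT pools from 5.90 to 6.02 and Scnn1b-Tg pools from 6.88 to 8.27. Of 24 measured acute phase genes 1 was called at PND 10, Cfb, complement factor B, higher by 2.45 (SE 0.44, adjusted p 0.00976), and 0 at PND 0, 3 and 42, where the median difference was 0.18. Of 30 measured genes of the signals that induce such proteins, ligands, receptors and their intracellular partners, 0 were likewise called between the genotypes at any age. The median difference of these 30 was 0.20 at PND 10 and 0.13 at PND 42, beside 0 over all probe sets, and Tlr2, a receptor for bacterial lipoproteins, had the lowest p at PND 10 with 1.01 (SE 0.23, adjusted p 0.0541). Of the 24 acute phase genes 4 were called higher and 2 lower over the whole period in WT lungs, beside 1.71% and 9.73% of all probe sets, and in Scnn1b-Tg lungs 5 rose and 0 fell, beside 2.48% and 8.7%. The complement gene C4b rose by 3.94 in WT and 4.19 in Scnn1b-Tg lungs, and Cfb by 2.70 and 3.98. Of the 44 relatives none was called higher and 3 were called lower in WT over the same period, with 1 in each direction for Scnn1b-Tg lungs, against the same shares of all probe sets, and a share of falls such as 2 of 24 or 3 of 44 lies near that background. The neutrophil granule gene Ngp fell by 3.63 in WT and fell by 2.91 in Scnn1b-Tg lungs. In WT lungs S100a8 fell by 1.45 and S100a9 fell by 1.69, and in Scnn1b-Tg lungs Ltf rose by 1.38. These granule genes also stand in the list of neutrophil markers. The markers of that list averaged 7.29 in WT PND 0 replicate 1, against 6.02 and 6.53 in the other WT pools at birth. How far the falls in WT lungs rest on that pool was not tested.

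The genes with the most similar course over the 8 groups, by the same distance as for Pigr, differed from member to member. Bpifa1 lay nearest to Srsy (0.46), Lrat (0.48), which stores retinol as esters, and Cyp2b10 (0.60). Bpifb1 lay nearest to H2-Ab1 (0.43) and H2-Aa (0.57), which code for chains of an MHC class II molecule, and Tff2 (0.63), a trefoil peptide of mucous cells. Lcn2 lay nearest to Lilrb4a (0.23), Cd84 (0.24) and Gla (0.26), and Pglyrp1 to Tyrobp (0.25), Il1rn (0.26) and Cyba (0.27). Saa3 lay nearest to Ccl3 (0.84), Cxcl5 (0.90) and Ccl9 (0.97), all chemokines, and Reg3g to Cd200r4 (0.34), Cd48 (0.36) and Acp5 (0.38). The nearest genes of Slpi were Casp4 (0.10), C1qb and Hcar2 (0.11 each), those of Lyz2 were Gm2a (0.10), Cd69 and Itgb7 (0.11 each), and those of Lyz1 were Tomm70a, Nkapd1 and Cep44 (0.08 each). A gene with a small span of group means gives small distances to many genes, so these distances are compared within 1 gene only.

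The order of the 8 groups differed between the genes. For Bpifa1 the 2 groups at PND 0 came lowest and overlapped, the 4 groups at PND 3 and PND 10 followed and overlapped from each to the next, and Scnn1b-Tg and then WT at PND 42 stood apart at the top. For Pigr the WT group at PND 42, with a mean of 6.45, overlapped the Scnn1b-Tg group at PND 10, with a mean of 6.65. For Lcn2 and Saa3 the lowest mean of the 8 groups was that of WT at PND 42, 9.58 and 5.21. For Saa3 those pools lay below all others, while for Lcn2 they overlapped WT at PND 3, with a lowest pool of 9.45, and Scnn1b-Tg at PND 0, with a lowest pool of 9.51. The highest group was Scnn1b-Tg at PND 42 for Lcn2 (11.59) and Scnn1b-Tg at PND 3 for Saa3 (10.18), in both cases overlapping the next. For Reg3g the 3 WT groups from PND 3 to PND 42 overlapped each other in order, at means of 9.19 to 9.55, below the 3 Scnn1b-Tg groups of the same ages at 9.86 to 10.82, of which the lowest overlapped the highest WT group.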

How the data were processed

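RNA of 24 samples was measured on Affymetrix Mouse Gene 1.0 ST arrays, 3 per group. The deposited values are log2 intensities that the authors made with Partek, version 6.5 in the submitters' processing notes, by robust multi-array average background correction, quantile normalization and median polish, which leaves array medians of 4.79 to 5. Of 35556 rows, 21789 name exactly 1 gene and were tested, 1621 name several and 12146 none. limma 3.58.1 in R 4.3.3 (statmod 1.5.0) fitted 8 group means over all 24 arrays with eBayes, leaving 16 residual degrees of freedom. P-values were adjusted within each comparison by the Benjamini-Hochberg method, and a call needed an adjusted p of 0.05 or less and a change of 2-fold. The number of arrays limits the precision, and each p-value weighs a difference against the spread between pools, shared over the 8 groups. The genes and lists were chosen with earlier results of these data known, and genes outside the 10 were named by rank in their list or by distance unless stated otherwise. Replicate numbers were not used as pairs, since the correlations of same-numbered arrays ran from -0.26 to 0.30. Alternatives were other normalizations, filters, thresholds, moderation, array weights, a replicate block and leaving out each array. The fits were tested on simulated data. Biopython 1.88 aligned the promoter windows of RefSeq, and protein sequences were not used here.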

Additional observations from a re-analysis of the deposited data

Results flagged for a closer look

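For Pigr and Reg3g the change from PND 0 to PND 42 differed between the genotypes by the test of that difference itself. Pigr rose by 2.34 in WT and by 4.34 in Scnn1b-Tg lungs, a difference of 2.00 on the log2 scale (SE 0.35, limma adjusted p 0.00745), and Reg3g rose by 1.11 and by 2.99, a difference of 1.88 (SE 0.39, limma adjusted p 0.034). Both were tested in a comparison chosen after the values had been seen.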

How the results depend on the processing

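For the 36 changes called for single genes, 504 alternative values were computed, of which 456 kept direction and call, 48 kept the direction and lost the call, and 0 reversed. The settings with no fold threshold and at 1.5-fold use the main fit and could not end a call. Of the fits that left out an array, only the lowest and the highest value of each change were counted. The share that kept the call is therefore not a measure of how often a call would hold. The number of genes called between the genotypes at PND 10, 1, was 0 without eBayes moderation, 0 with array weights, 0 with all rows, 3 with only the arrays compared (Lcn2, Saa3 and Pglyrp1, but not Pigr) and 0 to 1 when arrays were left out. The number at PND 42, 5, was 2 without eBayes moderation, 3 with a robust prior and a trend on intensity, 2 with all rows and 1 to 5 when arrays were left out. In WT lungs the count from PND 0 to PND 3, 1, was 2 with quantile normalization repeated, 3 with array medians subtracted, 6 with no fold threshold, 5 at 1.5-fold and 1 to 3 when arrays were left out, and that from PND 10 to PND 42, 3, was 5 with no fold threshold, 5 at 1.5-fold and 1 to 2 when arrays were left out. In Scnn1b-Tg lungs the count from PND 0 to PND 3, 5, was 8 with no fold threshold and 8 at 1.5-fold, and that from PND 3 to PND 10, 2, was 1 with only the arrays compared and 1 to 2 when arrays were left out. The count for the difference of the PND 10 to PND 42 intervals, 0, was 0 to 1 when arrays were left out. That for PND 0 to PND 42, 2, was 0 without eBayes moderation, 1 with a robust prior and a trend on intensity, 1 with all rows, 1 with quantile normalization repeated and 1 to 3 when arrays were left out, and with array weights it was Pigr and Bpifa1 that were called. Over all probe sets, 71 were called higher at PND 42 (53 to 178 over the settings that kept all arrays) and 3 lower (1 to 20), 23 higher at PND 10 (12 to 53) and 10 lower (3 to 73). Leaving out arrays went beyond these ranges. At PND 42 the counts were 45 higher and 0 lower without Scnn1b-Tg replicate 2. At PND 10 they were 7 higher and 3 lower without Scnn1b-Tg replicate 1. The cause of these shifts was not tested.

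With the replicate number as a block, which the correlations of same-numbered arrays did not bear out as a pairing (5 of 12 pairs above 0.1), the call of Bpifa1 at PND 42 ended (adjusted p 0.065), as did that of Reg3g in the difference of the PND 0 to PND 42 intervals (adjusted p 0.0691), where the count was 1. The block changed no other call of the 36. Other probe sets of the genes gave no value, since each gene has 1. The deposited values carry no detection call, so whether levels near or below the array median were above background is not known. Such levels were those of Bpifa1 and Pigr at PND 0 and of Saa3 in WT lungs at PND 42.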
